A study of Mus musculus with 9 samples.

Results

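The circadian clock genes described here were the 10 rows of the count table with the symbols Arntl (also called Bmal1), Clock, Npas2, Per1, Per2, Per3, Cry1, Cry2, Nr1d1 and Dbp, out of 24411 genes in the table. All 10 passed the filter on low counts, together with 11199 genes in all. RNA came from mouse livers in 3 groups of 3 libraries. The group cont. carried floxed Atg7 on both copies (flox/flox) without Cre. Atg7-KO carried the same floxed alleles and Alb-Cre, in which the albumin promoter drives Cre, so that the deletion is directed mainly to hepatocytes. The group S351A carried flox/flox, Alb-Cre and in addition p62S351A, a p62 allele in which alanine takes the place of a phosphorylated serine, on both copies. The mice were on a C57BL/6 background and 3 months of age by the study's methods. In replicates 2 and 3 of S351A the genotype entry names another position for 1 copy of p62 than the title does, and the titles were followed. The mice had free access to food under a light/dark cycle. The hour at which each liver was taken, which sets the level of clock genes, is not given in the sources used here, and its part in the differences below was not tested.

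The molecular clock is a transcription loop with a period of about a day. ARNTL forms a pair with CLOCK or its relative NPAS2 and switches on genes with E-box elements, among them the Per and Cry genes, whose proteins return to the nucleus and block the pair. A second loop runs through NR1D1 (REV-ERB alpha), which is also switched on by ARNTL and CLOCK and represses Arntl, Npas2 and Clock through ROR elements. DBP is an output factor of the same loop that acts through D-box elements. In mouse liver the levels of Arntl and Npas2 run nearly opposite in phase to those of Nr1d1 and Dbp, so a single time of collection catches some members high and others low.

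The stretches below show which clock elements lie at the starts of the members. They were read from RefSeq promoter windows (build GRCm38.p6) of 300 bases, 250 before and 50 after a start, which were present for 9 of the 10 genes in 13 windows. 6 of the 9 genes held a match, in 6 of the 13 windows. On both strands, the E-box CACGTG was found in windows of Per1 and Cry1, and in 7.15% of all 32851 windows. Its variant CACGTT was found in Cry1, Cry2 and Nr1d1 (4.68% of all windows), the D-box TTANGTAA in Per3 (2.32%) and the ROR element core TAGGTCA in Arntl (2.61%). The core TGGGTCA was found in 3.98% of all windows and in no member. No match was found in the windows of Clock, Npas2 and Dbp, which says only that these letters are not in those windows. Each stretch is 30 bases long, written 5′ to 3′ on the gene's own strand, with the matched letters in capitals.
Arntl, + strand, chr7:113207529-113207558, with the core TAGGTCA starting at base 31 after the start of the second window: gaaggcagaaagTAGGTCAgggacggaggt
Per1, + strand, chr11:69098771-69098800, E-box 166 bases before the start: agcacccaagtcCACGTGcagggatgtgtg
Cry1, - strand, chr10:85185107-85185136, with the variant box 79 and the E-box 60 bases before the start: agaAACGTGaggtgccggtggtCACGTGgg
Cry2, - strand, chr2:92434218-92434247, variant box 166 bases before the start: acacatggtgggAACGTGagggggcggagc
Per3, - strand, chr4:151044852-151044881, the D-box farther from the start, 205 bases before it: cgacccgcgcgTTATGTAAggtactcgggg
Per3, - strand, chr4:151044805-151044834, the D-box nearer to the start, 158 bases before it: cccgcccgcggTTATGTAAcccccgccgtg

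For Nr1d1, the member with the highest level per kilobase in every group, the 250 bases before its start are given whole (- strand, chr11:98775378-98775627), with the variant box 28 bases before the start in capitals.
Nr1d1: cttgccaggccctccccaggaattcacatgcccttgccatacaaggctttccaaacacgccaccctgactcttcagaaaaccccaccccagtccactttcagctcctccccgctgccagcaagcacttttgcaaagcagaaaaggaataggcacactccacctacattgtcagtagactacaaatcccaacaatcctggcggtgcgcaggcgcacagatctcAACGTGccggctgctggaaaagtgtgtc

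Library totals ran from 713835 to 15426566 counts, and each S351A library was smaller than every other library, so depth and the p62 allele cannot be told apart. The members had 2 to 1034 counts per library, and 4 of their 90 values were at or under 3 counts, the level taken as the floor. Atg7, the deleted gene, was at 42.4 to 57.8 CPM (counts scaled to library size) in cont., 28.0 to 30.2 in Atg7-KO and 21.8 to 24.8 in S351A, with log2 fold changes against cont. of -0.74 (adjusted p = 0.00758) and -1.07 (adjusted p = 0.00319). With scaling by the total count neither passed (-0.20 and -0.59). Sqstm1, which encodes p62, was at 387 to 477 in cont., 481 to 595 in Atg7-KO and 380.0 to 437 in S351A. Cell markers were summed in CPM over each list. Calls of markers follow the rule given in the next paragraph. By that rule, 18.1% of all genes were called lower and 19.9% higher in Atg7-KO, and 13.0% and 15.6% in S351A. The summed hepatocyte markers were at 48538 to 104993 in cont., 34688 to 41470 in Atg7-KO and 32720 to 45664 in S351A, and 5 of the 7 tested were called lower in each Atg7-deleted group. Alb weighs most in this sum, with a mean of 55496 CPM in cont. Hnf4a and Apob were not called and had higher means in the Atg7-deleted groups. The means in cont., Atg7-KO and S351A were 556, 724 and 679 for Hnf4a and 2473, 2874 and 3037 for Apob. The summed ductular markers were at 48.6 to 87.7, 827 to 1224 and 731 to 1213, with 6 of 6 tested called higher in each. Those of stellate cells and matrix were at 285 to 587, 1305 to 1765 and 1161 to 1703, with 5 of 8 called higher in each. The summed macrophage markers were at 228 to 366 in cont., 358 to 472 in Atg7-KO and 309 to 336 in S351A. In Atg7-KO, 5 of the 9 passed as higher and 1 as lower, and in S351A 4 passed as higher. The summed endothelial markers were at 114 to 212, 137 to 164 and 114 to 159, and of the 7, 1 was called higher and 3 lower in Atg7-KO, and 1 higher and 1 lower in S351A. Lymphocyte markers, of which 1 of 7 was tested, summed to 4.75 to 10.8, 16.9 to 24.1 and 11.2 to 21.8. No marker of any list was at 0 in all libraries. In whole liver, fewer cells of a type and less RNA per cell cannot be told apart, and the part of these shifts in the clock gene differences was not tested. By Xist and Y-linked genes, cont. held 1 female liver and each Atg7-deleted group held 2, and the remaining livers were male.

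Against cont., the clock genes that changed in Atg7-KO livers were Arntl, Clock and Nr1d1, and all fell, to a level between 2.06-fold and 2.46-fold lower. These 3 of 10 members were called by edgeR's quasi-likelihood test, with an adjusted p under 0.05 over all 11199 genes and a fold change above 1.5. In the same comparison 38.0% of all genes were called, 18.1% as lower and 19.9% as higher, so the members' share was near the background. The same 3 members had no overlap with cont., beside 51.6% of all genes, and 24.9% of all genes had every Atg7-KO library below every cont. library, as these 3 did. In S351A, Clock and Nr1d1 fell, which is 2 of 10 members against 28.6% of all genes (13.0% lower and 15.6% higher), and the same 2 had no overlap with cont., beside 38.0% of all genes, and 18.4% of all genes had every S351A library below every cont. library. No member was called higher in either comparison. The median log2 fold change of the members was -0.98 in Atg7-KO against cont. and -0.88 in S351A against cont., beside -0.03 for all genes in both comparisons. These comparisons share the cont. libraries and are not independent of each other. Scaling by the total count in place of TMM moved the median of all genes up by 0.55 in Atg7-KO and 0.50 in S351A on the log2 scale, and all 5 of these calls were then lost, with log2 fold changes of -0.67 for Arntl, -0.51 for Clock and -0.78 for Nr1d1 in Atg7-KO and of -0.55 for Clock and -0.98 for Nr1d1 in S351A. All changes below are relative to the TMM scale.

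**Figure D1:**
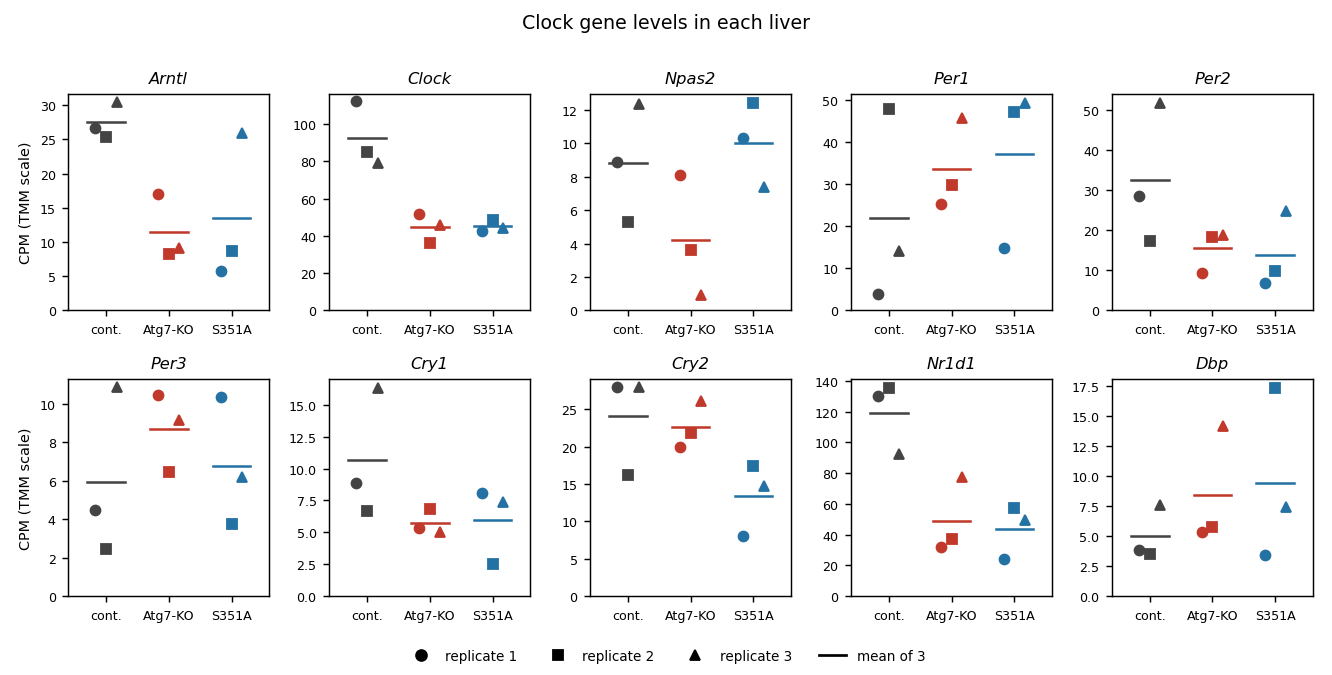
Level of each clock gene in each of the 9 livers, in CPM on the TMM scale (vertical axes from 0), with the replicate number as the symbol and the mean of each group as a line. Clock and Nr1d1 lie lower in all Atg7-KO and S351A libraries than in any cont. library, while Per1 spans 3.81 to 47.9 CPM within cont. alone.

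Of the activators, Arntl was at 26.7, 25.4 and 30.5 CPM in cont. replicates 1 to 3, at 16.9, 8.26 and 9.15 in Atg7-KO and at 5.74, 8.69 and 25.9 in S351A. All Atg7-KO libraries were below all cont. libraries, and S351A replicate 3 reached the cont. range while the other two were at the level of Atg7-KO or below it. The log2 fold change in Atg7-KO against cont. was -1.23 (SE 0.38, adjusted p = 0.0211). Leaving out cont. replicate 3 ended the call (adjusted p = 0.0516), as did leaving out replicate 2 (adjusted p = 0.0907) or 3 (adjusted p = 0.0827) of Atg7-KO. In S351A against cont. the log2 fold change was -1.05 (95% interval -2.01 to -0.09, adjusted p = 0.0933), and without S351A replicate 3 it was -1.96 (adjusted p = 0.00695). With no filter on low counts it was called as well (-1.16, adjusted p = 0.0139).

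Clock, the DNA-binding partner of ARNTL, had the narrowest spread of the members in S351A. It was at 113, 85.2 and 79.1 CPM in cont., at 51.7, 35.9 and 45.8 in Atg7-KO and at 42.5, 48.4 and 44.4 in S351A. Neither Atg7-deleted group overlapped cont. The log2 fold change was -1.04 (SE 0.21, adjusted p = 0.00182) in Atg7-KO and -1.02 (SE 0.22, adjusted p = 0.00495) in S351A, and both calls held when any 1 of the 9 libraries was left out. Thinning to the smallest total ended the call in Atg7-KO (-0.55, adjusted p = 0.0994), and leaving the 20 genes with most counts out of the library size ended that in S351A (-0.64, adjusted p = 0.0543). Between S351A and Atg7-KO the log2 difference was 0.02, with a 95% interval of -0.47 to 0.50.

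Npas2, which can stand in for CLOCK, was low in all groups. Its level was 8.90, 5.28 and 12.4 CPM in cont., 8.12, 3.59 and 0.915 in Atg7-KO and 10.3, 12.4 and 7.40 in S351A. The lowest value, in Atg7-KO replicate 3, rests on 2 counts, and the groups overlapped. The log2 fold change against cont. was -0.99 in Atg7-KO (SE 0.52, adjusted p = 0.149) and 0.13 in S351A (SE 0.57, adjusted p = 0.896). It was called lower in Atg7-KO when replicate 1 of that group was left out (-1.94, adjusted p = 0.0284).

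Of the repressors of the first loop, Per1 had the widest spread of all members within cont. It was at 3.81, 47.9 and 14.1 CPM in cont., at 25.3, 29.8 and 45.8 in Atg7-KO and at 14.9, 47.2 and 49.4 in S351A. Cont. replicate 2 was within the range of the Atg7-deleted livers and the other 2 cont. libraries were below all of them. On the log2 scale, the change against cont. was 0.57 in Atg7-KO (95% interval -0.71 to 1.85, adjusted p = 0.475) and 0.73 in S351A (-0.67 to 2.12, adjusted p = 0.429). Without cont. replicate 2, Per1 was called higher in both, with log2 fold changes of 1.62 (adjusted p = 0.0189) and 1.77 (adjusted p = 0.0236).

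Cont. replicate 2 was also the only female cont. library, and Per1 was higher in every female than in every male library within each of the 3 groups. Nr1d1 had the same order, Per3 had the opposite one, and the other members had neither. The 1 female of cont. was replicate 2, and the 1 male of each Atg7-deleted group was replicate 1. Sex and other differences of these single mice, such as the hour of collection, cannot be told apart. Among all genes, 5.96% had every female library above every male within each group and 4.69% had every female below. In a fit with sex added to the group terms, chosen after the data were seen, the log2 difference of female over male livers was 1.42 for Per1 (SE 0.34, unadjusted p = 0.00127, adjusted p = 0.145), 0.69 for Nr1d1 (SE 0.26, adjusted p = 0.574) and -0.98 for Per3 (SE 0.39, adjusted p = 0.611). None of the 10 members was called for sex, beside 0.348% of all genes, and 4 of them had an unadjusted p under 0.05, beside 6.79% of all genes. Within males alone, mean log2 CPM of Per1 was higher than in cont. by 1.68 in Atg7-KO and 0.94 in S351A, and within females it differed by -0.37 and 0.01. Each of these comparisons within a sex has 1 library in 1 of its groups, and the difference between the sexes was not tested. In Atg7-KO the differences in males and females were -0.73 and -1.48 for Arntl, -0.86 and -1.06 for Clock and -1.76 and -1.33 for Nr1d1. In S351A they were -1.14 and -0.87 for Clock and -2.16 and -1.34 for Nr1d1. With sex in the fit, Per1 differed from cont. by 0.41 in Atg7-KO (adjusted p = 0.434) and by 0.38 in S351A (adjusted p = 0.552) on the log2 scale.

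**Figure D2:**
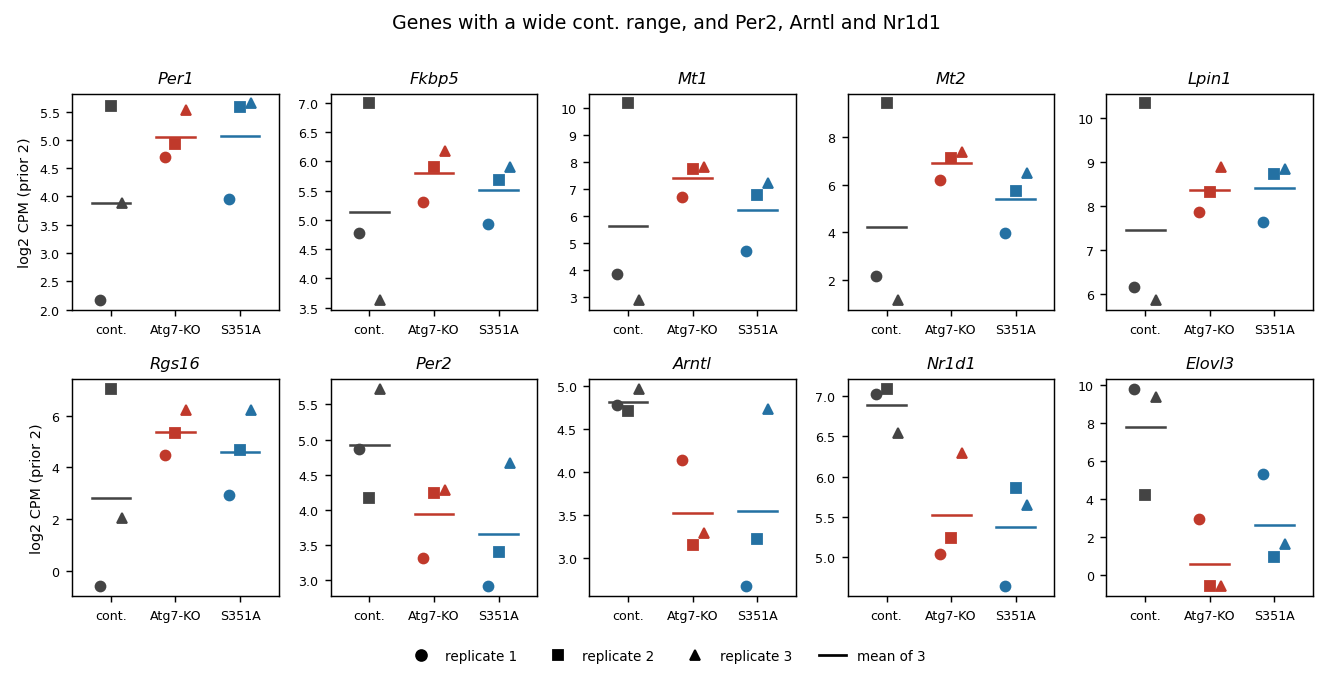
Levels in each liver as log2 CPM with a prior count of 2, with symbols and lines as in the plot of member levels. In the first 6 panels cont. replicate 2 lies far above cont. replicates 1 and 3 and the male replicate 1 is the lowest library of Atg7-KO and of S351A, whereas Per2 and Arntl do not show this order. Fkbp5, Mt1, Mt2, Lpin1 and Rgs16 were chosen after their values were seen.

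Per2 was at 28.6, 17.3 and 51.9 CPM in cont., at 9.28, 18.3 and 18.8 in Atg7-KO and at 6.89, 9.93 and 24.7 in S351A. The groups overlapped because cont. replicate 2 was low. Against cont., the log2 fold change was -1.16 in Atg7-KO (95% interval -2.10 to -0.21, adjusted p = 0.0516) and -1.29 in S351A (-2.41 to -0.17, adjusted p = 0.0786). Neither passed the test over all genes with all 9 libraries, a filter on low counts and no replicate block. With no filter both did, at -1.21 (adjusted p = 0.00167) and -1.40 (adjusted p = 0.00264). The same held without cont. replicate 2, at -1.48 (adjusted p = 0.0108) and -1.62 (adjusted p = 0.0220), and in S351A without its replicate 3 (-2.03, adjusted p = 0.0278). Per2 was also called in Atg7-KO when S351A replicate 1 (adjusted p = 0.0498) or S351A replicate 3 (adjusted p = 0.0364), which share the estimate of spread, was left out. Without cont. replicate 3 the changes shrank to -0.57 in Atg7-KO (adjusted p = 0.310) and -0.71 in S351A (adjusted p = 0.315). After thinning to the smallest total they were -0.35 (adjusted p = 0.626) and -0.66 (adjusted p = 0.364), and with scaling by the total count -0.59 and -0.76.

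Per3 was the least abundant member by length in cont. and in S351A, with 3 to 121 counts per library. It was at 4.45, 2.46 and 10.8 CPM in cont., at 10.4, 6.46 and 9.15 in Atg7-KO and at 10.3, 3.73 and 6.17 in S351A, and all groups overlapped. On the log2 scale, the change against cont. was 0.39 in Atg7-KO (SE 0.47, adjusted p = 0.55) and 0.03 in S351A (SE 0.60, adjusted p = 0.98). Without cont. replicate 3 it was called higher in Atg7-KO (1.41, adjusted p = 0.0378).

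Neither of the cryptochromes, which repress together with the PER proteins, was called in any comparison with all 9 libraries and the filter on low counts. Cry1 was at 8.90, 6.69 and 16.3 CPM in cont., at 5.34, 6.82 and 5.03 in Atg7-KO and at 8.04, 2.48 and 7.40 in S351A. Against cont. it stood at -0.97 on the log2 scale in Atg7-KO (95% interval -1.83 to -0.11, adjusted p = 0.0714) and -0.90 in S351A (-1.96 to 0.17, adjusted p = 0.189), with groups that overlapped. Without cont. replicate 2 or with no filter it was called lower in Atg7-KO (-1.24, adjusted p = 0.0217, and -1.03, adjusted p = 0.0418). Without cont. replicate 3 it shrank to -0.42 in Atg7-KO (adjusted p = 0.464) and -0.35 in S351A (adjusted p = 0.645).

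Cry2 was at 28.0, 16.2 and 28.0 CPM in cont., at 19.95, 21.9 and 26.1 in Atg7-KO and at 8.04, 17.4 and 14.8 in S351A. All S351A libraries were below all Atg7-KO libraries, which held for no other member and for 9.23% of all genes (16.9% did not overlap in either direction), and cont. replicate 2 was within the S351A range. Against cont. the log2 fold change was -0.10 in Atg7-KO (95% interval -0.69 to 0.48, adjusted p = 0.801) and -0.86 in S351A (-1.58 to -0.13, adjusted p = 0.0716). Without cont. replicate 2 or with no filter it was called lower in S351A (-1.09, adjusted p = 0.0202, and -0.96, adjusted p = 0.0309).

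Nr1d1, the repressor of the second loop, was at 130.3, 136 and 92.6 CPM in cont., at 32.0, 37.0 and 77.8 in Atg7-KO and at 24.1, 57.1 and 49.4 in S351A. Every cont. library was above every library of both Atg7-deleted groups, and Atg7-KO replicate 3 came closest to them. The log2 fold change was -1.30 in Atg7-KO (SE 0.35, adjusted p = 0.0112) and -1.46 in S351A (SE 0.38, adjusted p = 0.0125). The call in Atg7-KO was lost without its replicate 1 (adjusted p = 0.0620) or 2 (adjusted p = 0.0576), and the call in S351A without its replicate 1 (adjusted p = 0.0580). The end of Nr1d1 (11:98767932-98775333, - strand, mm10) overlaps that of Thra (+ strand, 11:98740638-98769006), and the strand setting of the counts is not given in the sources used here, so reads in the overlap could count for either gene.

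Dbp, the output factor, was at 3.81, 3.52 and 7.62 CPM in cont., at 5.34, 5.74 and 14.2 in Atg7-KO and at 3.45, 17.4 and 7.40 in S351A, and all groups overlapped. Against cont., the log2 fold change was 0.56 in Atg7-KO (95% interval -0.56 to 1.69, adjusted p = 0.423) and 0.76 in S351A (-0.56 to 2.08, adjusted p = 0.375). Dbp had 3 to 85 counts per library, all 9 of them fractional as deposited, and its end (7:45705088-45710203, + strand, mm10) overlaps Sphk2 on the - strand (7:45709467-45718002), so its level is uncertain.

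**Figure D3:**
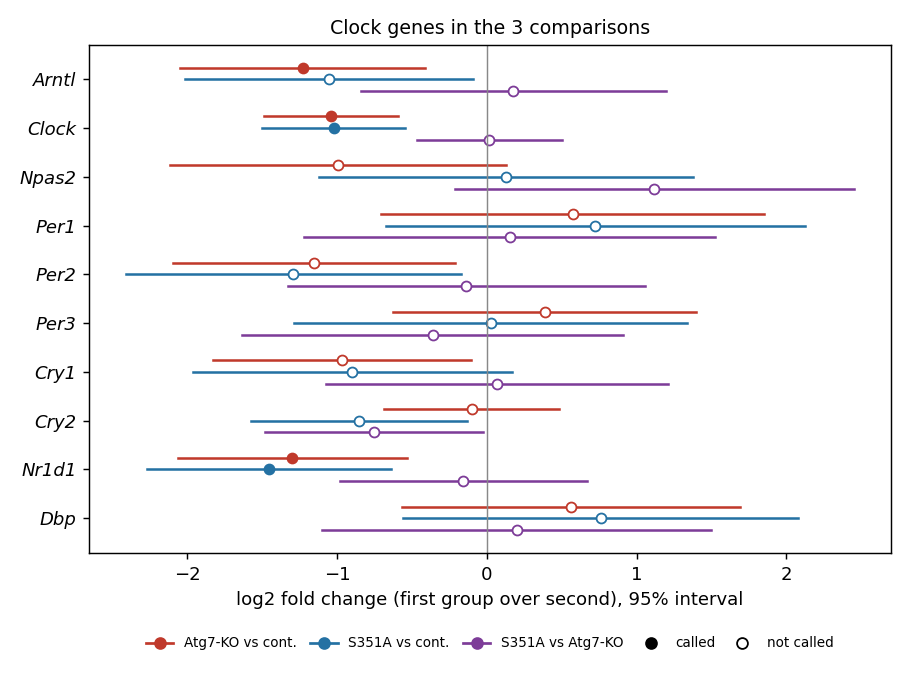
Log2 fold change of each clock gene (points) with its 95% interval (lines) in the 3 comparisons, from edgeR, with filled points for called changes. Arntl, Clock and Nr1d1 in Atg7-KO against cont. and Clock and Nr1d1 in S351A against cont. carry filled points, and no interval for S351A against Atg7-KO other than that of Cry2 lies to one side of 0.

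Whether the p62 allele shifts the clock genes in livers without Atg7 is addressed by S351A against Atg7-KO. None of the 10 members was called by edgeR or by limma-voom, beside 0.00893% of all genes (1 of 11199) by edgeR. With so few genes called and such small S351A libraries, a missing call does not show that a member is unchanged. DESeq2 gave an adjusted p for 2 of them, Clock and Nr1d1, and called neither. At an unadjusted p under 0.05 there was 1 member, Cry2, beside 6.60% of all genes. Its log2 difference was -0.75 (SE 0.33, unadjusted p = 0.0435, adjusted p = 0.755). The median of the members was 0.04, beside 0.01 for all genes. Npas2 had the log2 difference of greatest size among the members, 1.12, with a 95% interval of -0.21 to 2.45 that included 0. Leaving out each library, the difference of Npas2 ran from 0.73 to 2.06. Only Clock had an interval that excluded a difference of 1.5-fold in both directions.

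Per kilobase of exon in the GENCODE M21 annotation of mm10, Nr1d1 was first among the members in every group, with 3 libraries a group. Its mean and SD were 38.8 ± 7.61 CPM per kb for cont., 15.9 ± 8.16 for Atg7-KO and 14.1 ± 5.61 for S351A. In cont. it was followed by Clock (6.72 ± 1.30), Per2 (5.56 ± 3.01), Per1 (3.89 ± 4.10), Cry2 (3.81 ± 1.08), Arntl (3.66 ± 0.352), Cry1 (3.18 ± 1.51), Npas2 (1.85 ± 0.739), Dbp (1.67 ± 0.763) and Per3 (0.616 ± 0.456). Of the 9 pairs of neighbours in this order, the libraries did not overlap in 2, Nr1d1 above Clock and Dbp above Per3. In Atg7-KO the order was Nr1d1, Per1, Cry2, Clock, Dbp, Per2, Cry1, Arntl, Per3 and Npas2, with 3 of the 9 pairs not overlapping. The place of Per1 in cont., 4 of 10, rests on replicate 2, and without that library, an alternative chosen after seeing the data, its mean was 1.59 CPM per kb, in place 9. In S351A the order was Nr1d1, Per1, Clock, Dbp, Per2, Cry2, Npas2, Cry1, Arntl and Per3, and every pair of neighbours overlapped. The members varied more within groups than genes in general did. Over the members, the median SD of log2 CPM came to 0.56 among cont., 0.48 among Atg7-KO and 0.74 among S351A libraries, beside 0.36, 0.19 and 0.37 for all genes. The members have fewer counts than many genes, and the part of counting error in this spread was not tested.

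The ratio of 2 genes within a library does not depend on how libraries are scaled. For 4 members (Arntl, Clock, Npas2 and Cry1) over 5 others (Dbp, Nr1d1, Per1, Per2 and Per3), 20 log2 ratios of counts were formed, which share genes and were not tested. Those named were picked after their values were seen and are given as a description. In Atg7-KO, 7 of the 20 lay wholly below cont. and 0 wholly above, and in S351A 3 lay wholly below and 1 above. The others overlapped cont. In S351A, Dbp, Per3 and Cry1 had at most 14, 9 and 7 counts per library. The log2 ratio of Arntl to Dbp was 2.81, 2.85 and 2.00 in cont., 1.67, 0.52 and -0.63 in Atg7-KO and 0.74, -1.00 and 1.81 in S351A. In cont. every library held at least 4 counts of Arntl for 1 of Dbp, and in Atg7-KO replicate 3 Dbp had more counts than Arntl. The log2 ratio of Cry1 to Per3 was 1.00, 1.44 and 0.59 in cont., -0.97, 0.08 and -0.86 in Atg7-KO and -0.36, -0.58 and 0.26 in S351A, again without overlap between cont. and the others. The ratio of Npas2 to Nr1d1 was -3.87, -4.68 and -2.91 in cont. and -1.22, -2.20 and -2.74 in S351A, where Nr1d1 was lower and Npas2 overlapped cont. The ratio of Clock to Nr1d1, both of which fell, was -0.21, -0.67 and -0.23 in cont. and 0.69, -0.04 and -0.77 in Atg7-KO, and overlapped.

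**Figure D4:**
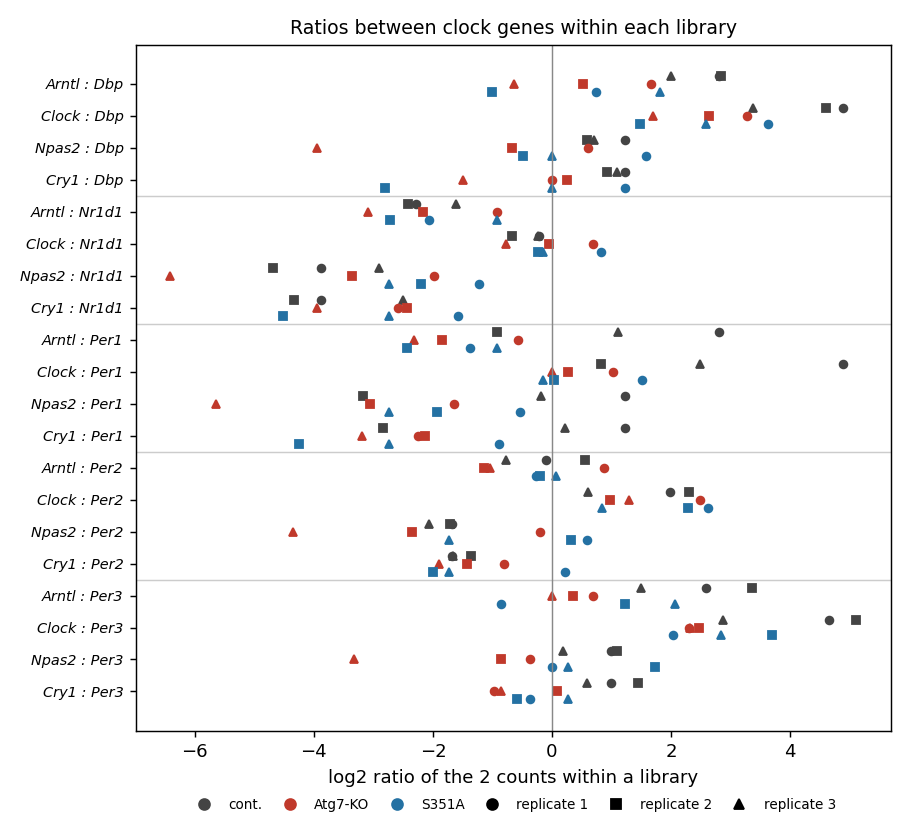
Log2 ratio of the counts of 2 clock genes within each library (horizontal axis) for 20 pairs (rows, in blocks by the second gene), coloured by group and with the replicate number as the symbol. For Arntl to Dbp and Cry1 to Per3, all Atg7-KO and S351A libraries lie to the left of all cont. libraries.

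Other genes of the clock were described from a list of 19, of which 15 were tested. In Atg7-KO against cont., 6 fell and 1 rose, and in S351A 4 fell and 2 rose, again beside 38.0% and 28.6% of all genes called. The list's median log2 fold change was -0.50 in Atg7-KO and -0.37 in S351A. The 6 calls in S351A became 3 without cont. replicate 3 or S351A replicate 1 or 2. With scaling by the total count, Csnk1e, Hlf and Nfil3 stayed called in Atg7-KO and Csnk1e, Nfil3, Nr1d2 and Timeless in S351A. Nr1d2 (REV-ERB beta), the close relative of Nr1d1, was at 66.7, 59.2 and 96.2 CPM in cont., 28.1, 29.1 and 45.3 in Atg7-KO and 23.0, 27.3 and 38.3 in S351A. It was lower by log2 fold changes of -1.14 (adjusted p = 0.00431) and -1.34 (adjusted p = 0.00496). Nfil3, which encodes a repressor at D-box elements, was at 85.8, 74.7 and 41.3 CPM in cont., 12.5, 20.1 and 11.4 in Atg7-KO and 8.04, 9.93 and 28.4 in S351A. Its log2 fold changes were -2.17 (adjusted p = 0.000862) and -2.10 (adjusted p = 0.004), greater in size than those of the 10 members, a difference that was not tested. Nfil3 is itself a target of the REV-ERB repressors.

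Hlf and Tef encode the relatives of DBP that bind the same D-box elements. Hlf was at 34.2 to 39.4 CPM in cont., 8.35 to 19.0 in Atg7-KO and 17.3 to 20.7 in S351A, with log2 fold changes of -1.28 (adjusted p = 0.0032) and -0.92 (adjusted p = 0.0441). Tef was at 82.0 to 125 CPM in cont., 43.2 to 59.9 in Atg7-KO and 44.8 to 71.6 in S351A, with log2 fold changes of -0.98 (adjusted p = 0.0058) and -0.82 (adjusted p = 0.0255). Both had no library of an Atg7-deleted group within the cont. range, whereas Dbp was at 0.56 and 0.76 with overlap. The difference between Dbp and its relatives was not tested. Sirt1, a deacetylase that acts on the clock, fell in Atg7-KO (-1.07, adjusted p = 0.0417) and was at -1.13 in S351A (adjusted p = 0.0883). Csnk1e, a kinase that marks PER proteins for breakdown, rose, from 14.6 to 30.6 CPM in cont. to 90.8 to 118 in Atg7-KO (2.18, adjusted p = 0.000435) and 65.4 to 169 in S351A (2.39, adjusted p = 0.000531). Timeless rose in S351A (0.91, adjusted p = 0.0461) and was at 0.61 in Atg7-KO (adjusted p = 0.0989). None of the 15 was called between S351A and Atg7-KO by edgeR or limma-voom, and none had an unadjusted p under 0.05 by edgeR. DESeq2 gave an adjusted p for 10 of the 19 listed genes and called none.

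**Figure D5:**
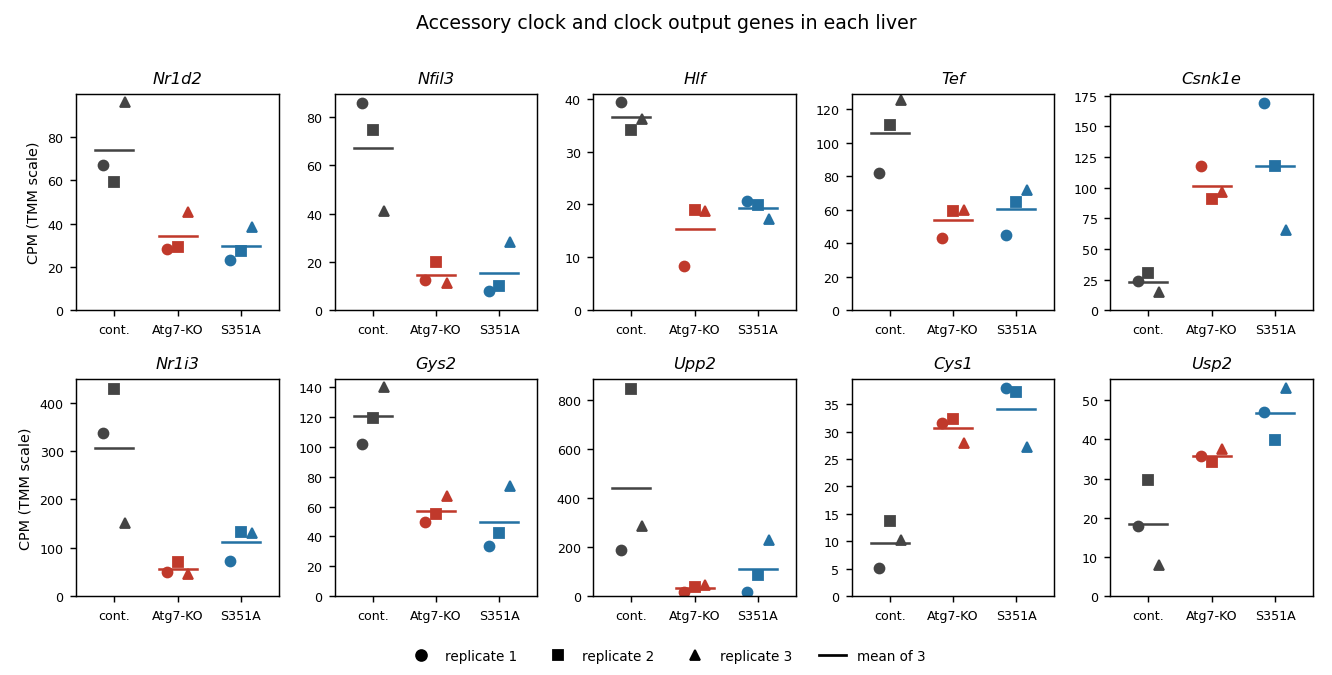
Levels in each liver (CPM on the TMM scale, vertical axes from 0) of 5 accessory clock genes and 5 output genes of the liver clock, with symbols and lines as in the plot of member levels. Nr1d2, Nfil3, Hlf and Tef lie lower and Csnk1e and Cys1 higher in all Atg7-deleted livers than in all cont. livers.

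Of 24 output genes of the liver clock, 22 were tested, and 10 were called in Atg7-KO (6 lower and 4 higher) and 8 in S351A (5 lower and 3 higher), beside 38.0% and 28.6% of all genes. Elovl3, a fatty acid elongase with a strong daily rhythm in males, was at 882, 18.0 and 654 CPM in cont., 6.96, 0 and 0 in Atg7-KO and 39.1, 1.24 and 2.47 in S351A. In every group the male libraries were above the female ones. Upp2, a uridine phosphorylase, was at 189, 841 and 286 CPM in cont. and 15.8, 36.3 and 44.4 in Atg7-KO (-3.79, adjusted p = 0.00275), and its log2 fold change in S351A was -2.00 (adjusted p = 0.0631). Nr1i3 (CAR), a receptor for foreign compounds, fell by 2.45 in Atg7-KO (adjusted p = 0.000347) and by 1.46 in S351A (adjusted p = 0.0111) on the log2 scale. Ppara, Gys2 (liver glycogen synthase) and Insig2 fell in both, with log2 fold changes of -1.16, -1.08 and -0.94 in Atg7-KO (adjusted p = 0.0064, 0.00619 and 0.016) and -0.83, -1.28 and -0.93 in S351A (adjusted p = 0.0479, 0.00525 and 0.0261). Of the genes that rose, Cys1 went from 5.09 to 13.7 CPM in cont. to 27.9 to 32.3 in Atg7-KO (1.59, adjusted p = 0.000762) and 27.1 to 37.9 in S351A (1.75, adjusted p = 0.00129). Usp2, a deubiquitinase, rose by 1.03 (adjusted p = 0.0429) and 1.41 (adjusted p = 0.0183), and Nampt, an enzyme of NAD synthesis, by 0.77 (adjusted p = 0.0117) and 0.64 (adjusted p = 0.0463). The 8 calls in S351A became 4 without its replicate 1 or 2. The output genes went in both directions, with a median log2 fold change of -0.23 in Atg7-KO and -0.34 in S351A.

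Genes that respond to signals that set the liver clock were described from 3 further lists. Their counts stand beside 38.0% of all genes called in Atg7-KO and 28.6% in S351A. The signals themselves were not measured, and the list for glucocorticoids includes Per1. Of 15 genes that respond to glucocorticoids, Tat, Errfi1 and Zfp36 fell in Atg7-KO (-3.39, -1.75 and -1.33, adjusted p = 0.000647, 0.00385 and 0.0168) and in S351A (-2.74, -1.64 and -1.51, adjusted p = 0.00348, 0.00866 and 0.0171). Lcn2 and Cdkn1a rose, by 4.79 and 2.16 in Atg7-KO (adjusted p = 3.53e-05 and 0.0319) and by 4.72 and 2.20 in S351A (adjusted p = 8.79e-05 and 0.0434). These 5 called genes of 15 became 10 in each comparison without cont. replicate 2. They became 3 in Atg7-KO without its replicate 3 and 3 in S351A without its replicate 1 or 2. Of 10 genes timed by body temperature, Dnajb1 and Hspb1, which encode heat shock proteins, rose in Atg7-KO (1.48 and 1.22, adjusted p = 0.000171 and 0.00251), and Dnajb1 rose in S351A (1.02, adjusted p = 0.00496), where Hspb1 was at 0.53 (adjusted p = 0.172). The 2 calls in Atg7-KO became 4 without cont. replicate 2, and 6 without cont. replicate 3 or with scaling by the total count. The 1 call in S351A became 2 without any 1 of the cont. libraries, Atg7-KO replicates 1 and 3 or S351A replicate 3. Of these 10 genes, 6 had all S351A libraries below all Atg7-KO libraries, beside 9.23% of all genes, and none was called. Their count was 3 at an unadjusted p under 0.05 and 0 genes were called by limma-voom. DESeq2 gave an adjusted p for 7 of the 11 listed and called none. Of 15 genes timed by feeding, G6pc, Pck1 and Srebf1 fell in Atg7-KO (-3.39, -2.00 and -1.85, adjusted p = 0.000422, 0.00304 and 0.00179), and G6pc and Srebf1 fell in S351A (-2.81 and -1.51, adjusted p = 0.00225 and 0.00962), where Pck1 was at -1.17 (adjusted p = 0.054). Upp2, Sirt1, Timeless, Hspb1 and Pck1 were not called between S351A and Atg7-KO. Pnpla3 rose by 1.77 (adjusted p = 0.00185) and 2.50 (adjusted p = 0.000634), Igfbp1 by 1.58 (adjusted p = 0.00173) and 1.52 (adjusted p = 0.00424), and Fgf21, at 0 to 13.9 CPM, was called higher in both. Without cont. replicate 2, the 5 feeding-timed genes called in S351A became 8.

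Among 8809 genes with a mean of at least 10 CPM, the pattern over the 9 libraries nearest to that of Arntl was found in Odf2l, Gpr155 and Crtc2. Their root mean square difference from Arntl in centred log2 CPM was 0.28, 0.32 and 0.33. Crtc2 was at 65.5, 71.8 and 56.1 CPM in cont., 25.5, 28.7 and 20.1 in Atg7-KO and 17.2, 19.9 and 55.5 in S351A, so that its S351A replicate 3 also stood above the rest of that group, just under the lowest cont. library. Nearest to Dbp were Gas7, Csnk1g1 and Midn, at 0.42, 0.44 and 0.44. Csnk1g1 was at 8.26, 8.45 and 8.33 CPM in cont., 15.5, 12.9 and 17.4 in Atg7-KO and 6.89, 22.4 and 9.87 in S351A, and shared with Dbp its highest value in S351A replicate 2. Such shared high values follow from how these genes were chosen and are not a separate result.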

How the data were processed

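The 9 liver libraries were made from poly(A) RNA and read from a single end. Per the submitters' processing notes, reads were trimmed with Trim Galore, aligned to mm10 with STAR and quantified with RSEM, and the authors deposited expected counts per gene. Versions, annotation and strand setting are not given in the sources used here. Livers of other genotypes were not used here. The deposited expected counts were rounded. edgeR 4.0.16 (R 4.3.3) was fitted to all 9 libraries with TMM factors and filterByExpr (minimum count 10, minimum total 15), and its quasi-likelihood F test was adjusted by Benjamini-Hochberg over 11199 of 24411 genes. A call needed an adjusted p under 0.05 and a fold change above 1.5. Levels are CPM on the TMM scale, and log2 CPM used a prior count of 2. Intervals are 95% intervals of the fit, and p-values measure the spread between these mice. With 3 libraries a group and 713835 to 15426566 counts each, 3 counts (0.269 to 3.73 CPM) were taken as the floor, which covers counting error only.

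The members and lists were chosen with earlier results of these data known. Named were all members, the 3 genes nearest to Arntl and to Dbp, and from each list at most 4 called genes per comparison and direction, by size of change, with groups that did not overlap and a mean of 10 CPM or more in the higher one. Tef, Gys2 and Insig2 in Atg7-KO, Elovl3 and Ppara in S351A, values given beside a call in the other comparison, Fgf21 and the genes picked for the spread within cont. fall outside this rule and were named after their values were seen. Of the genes this rule names, 1 is not reported here. Sex was read from Xist and Y-linked genes. The letters of the ROR element were narrowed after a first, looser search. Gene positions and exon lengths came from GENCODE M21, and all 10 members matched. Alternatives were other scalings and filters, DESeq2 1.42.0, limma-voom (limma 3.58.1), a replicate block, sex as a covariate, thinning and leaving out each library. The code was tested on simulated data. Changes were set there only in Atg7-KO and only in well-counted genes, so members with few counts and changes in S351A were not covered.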

Additional observations from a re-analysis of the deposited data

How the results depend on the processing

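Of the 3 members called in Atg7-KO against cont., the count became 0 with scaling by the total count, 1 with library sizes that leave out the 20 genes with most counts, 5 with no filter on low counts, 2 where at least 10 counts were asked of every library (which left 2 members tested), 1 at an adjusted p under 0.01 and 2 after thinning to the smallest total (6 members tested). The 2 members called in S351A against cont. became 0, 1, 5 and 1 under the first 3 and the stricter threshold. Leaving out each library gave 1 to 6 and 1 to 5. The cause was not tested, except that Arntl was not tested under the stricter filter. The same members were called against cont. with RLE factors, DESeq2, limma-voom and sex as a covariate. Against cont., Cry2 in Atg7-KO turned to 0.45 with total scaling, 0.34 without the top genes and 0.025 after thinning, and Per3 in S351A to -0.093 with no filter and -0.025 with limma-voom. In S351A against Atg7-KO, Clock turned to -0.038 with total scaling, -0.037 with no filter, -0.026 without the top genes, -0.00522 with the stricter filter and -0.25 after thinning, Arntl to -0.028 with limma-voom, Per1 to -0.025 with the sex covariate and Nr1d1 to 0.044 after thinning. None of these values was called. Leaving out each library, the log2 difference between S351A and Atg7-KO ran from -0.72 to 0.61 for Arntl, -0.12 to 0.14 for Clock, -0.12 to 0.54 for Per1, -0.85 to 0.19 for Per2, -0.21 to 0.43 for Cry1, -0.41 to 0.33 for Nr1d1 and -0.59 to 0.75 for Dbp. In S351A against cont. it ran from -0.16 to 0.55 for Npas2, -0.44 to 1.04 for Per3 and -0.043 to 1.33 for Dbp, and in Atg7-KO against cont. from -0.33 to 0.061 for Cry2. The within-sex values and the sex term were chosen after seeing the data. In the small S351A libraries the members had 2 to 46 counts each, and the parts of this depth and of the spread between mice in what was called were not told apart.

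With a replicate block, 4 members were called in Atg7-KO (Per2 in addition), 3 in S351A (Per2 in addition) and 0 between them, and Per1 turned to -0.032 in S351A against Atg7-KO. The replicate numbers are not stated to pair the mice. In every group replicate 1 was male and replicate 2 female, while replicate 3 was male in cont. and female in the Atg7-deleted groups. Replicate number and sex thus largely coincide, and their parts in the block and in the correlations below cannot be told apart. Of 9 same-number pairs, 5 had a correlation of deviations over 0.1 (range -0.04 to 0.31), and in 13 of 18 comparisons a library correlated best with its own number.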
